A study of Mus musculus with 12 samples.

Results

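Metallothioneins and the carriers that move zinc into and out of cells were followed in mouse liver during concanavalin A hepatitis. The genes were taken by name from the deposited table: the metallothioneins Mt1 and Mt2, the zinc importers Slc39a14, Slc39a4 and Slc39a5, the exporters Slc30a1 and Slc30a10, and the zinc-sensing transcription factor Mtf1. Of these 8 genes, 7 were among the 11289 genes of the table, and Slc39a5 was not listed there under that name.

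Concanavalin A (Con A), a lectin of the jack bean that sets off T cells, was injected into the tail vein of C57BL/6J mice at 15 mg/kg. The Con A mice received PBS and the Con A + MSCs mice received 2000000 human mesenchymal stromal cells of the umbilical cord, both intravenously 30 min after Con A, and the Ctrl mice are labelled as controls without a stated injection. Liver was collected 24 h later from 4 mice of each group, and poly-A RNA was sequenced. The labels give an age of 8 to 10 weeks, while the study's text gives younger, male mice and fewer cells. The mice of a group are separate animals by their labels, and nothing in the labels ties a mouse of one group to a mouse of another. The infused cells were human and the recipients had an intact immune system.

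Metallothioneins are small, cysteine-rich proteins that bind zinc and copper in the cytosol, and the liver makes large amounts of them in response to metals, interleukin 6 and glucocorticoids. Carriers of the Slc39a (ZIP) family bring zinc into the cytosol, whereas those of the Slc30a (ZnT) family take it out of the cell or into organelles. MTF1 senses free zinc and binds short metal response elements in the promoters of its target genes, of which Mt1, Mt2 and Slc30a1 are the classical ones.

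The 250 bases before and the first 30 bases after the annotated start were searched for the core of the metal response element, TGCACNC or TGCGCNC on either strand, with overlapping matches counted separately. RefSeq windows on GRCm38.p6 were available for 6 of the 8 genes, in 7 windows since Slc39a5 has a pair of starts, and Slc39a14 and Slc39a4 had no entry. The classical targets Mt1, Mt2 and Slc30a1 are shown with the manganese exporter Slc30a10, each 5′ to 3′ on the + strand with the matches in capitals. They cover chr8:94178839-94179118 (Mt1), chr8:94172368-94172647 (Mt2), chr1:191906531-191906810 (Slc30a1) and chr1:185454598-185454877 (Slc30a10).
Mt1: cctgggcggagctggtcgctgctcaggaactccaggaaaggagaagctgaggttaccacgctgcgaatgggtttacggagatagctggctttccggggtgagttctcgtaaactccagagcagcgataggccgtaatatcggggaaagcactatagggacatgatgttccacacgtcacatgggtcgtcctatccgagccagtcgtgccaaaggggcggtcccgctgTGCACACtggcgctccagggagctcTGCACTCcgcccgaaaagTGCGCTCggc
Mt2: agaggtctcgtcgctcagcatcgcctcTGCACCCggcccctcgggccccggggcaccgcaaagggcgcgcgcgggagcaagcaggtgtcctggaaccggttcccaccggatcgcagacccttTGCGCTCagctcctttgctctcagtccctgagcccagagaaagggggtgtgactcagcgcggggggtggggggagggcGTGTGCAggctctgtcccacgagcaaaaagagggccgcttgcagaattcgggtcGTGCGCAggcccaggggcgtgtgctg
Slc30a1: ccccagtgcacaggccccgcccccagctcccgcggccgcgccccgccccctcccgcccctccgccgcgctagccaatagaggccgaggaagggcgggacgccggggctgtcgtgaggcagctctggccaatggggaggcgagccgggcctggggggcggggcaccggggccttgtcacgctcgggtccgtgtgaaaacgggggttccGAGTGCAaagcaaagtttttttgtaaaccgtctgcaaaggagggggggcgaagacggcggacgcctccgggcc
Slc30a10: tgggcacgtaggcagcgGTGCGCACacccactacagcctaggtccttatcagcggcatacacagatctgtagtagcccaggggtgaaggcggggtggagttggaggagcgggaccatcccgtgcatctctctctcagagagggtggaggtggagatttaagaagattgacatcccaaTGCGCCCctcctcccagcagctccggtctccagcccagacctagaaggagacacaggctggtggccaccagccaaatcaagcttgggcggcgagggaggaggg

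The Mt2 window held 4 matches, with first bases at positions -223, -128, -50 and 5, where position 1 is the first base of the transcript. In Mt1 there were 3 matches, at -23, 3 and 21, and in Slc30a1 there was 1, at -43. Slc30a10 also had 3 matches, at -233, -232 and -73, of which the first pair overlap on opposite strands. Mtf1 had 0, and the Slc39a5 windows had 1 and 0. Among all 32851 promoter windows of the same length, 24.1% held at least 1 match, 6.37% at least 2, 1.73% at least 3 and 0.405% at least 4. Also searched were TTCNNNGAA (STAT), with 0 matches in all 7 windows against 7.83% of all windows, and TGACNNNGC (antioxidant response), with 1 match in Mt2, 1 in Slc30a1 and 2 in a Slc39a5 window against 11.5%. The full glucocorticoid response element palindrome and CACGTG (E-box) had 0 matches in all 7 windows, against 0.00913% and 6.79% of all windows. These are matches of letters. The start of Mt2 used here lies upstream of the one that GENCODE gives (chr8:94172664-94173568), so the window depends on the annotation. The Mt1 window depends on it too, since its matches at 3 and 21 lie after the annotated start. That window ends at chr8:94179118, and the bases beyond were not searched. The Mt1 counts, including those of the other motifs, therefore hold for this window only and may not describe the whole promoter. The Mtf1 window (chr4:124802299-124802578) lies wholly downstream of the start of the scored transcript, at 124802104. Its counts of 0 therefore do not cover the bases before that start.

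The authors deposited a whole-number score for each gene in each mouse, normalized between mice, and not a read count. Totals ranged from 17649654 to 17657159 over the 12 mice, so the sequencing depth is unknown and no counting error can be given. At scores of 3000 or more, 8 large sets of genes each shared one series of possible values in every mouse. The sets differed in the median GC content of their transcripts, from 43.8% to 56.7%, and the ranges of sets with neighbouring medians overlapped. Mt1 and Mt2 belonged to the same set of 118 genes, and Slc39a14 belonged to another of 133 genes. A score of these 3 genes therefore gives the rank of the gene within its set, and the next possible value up was 1.01 to 1.31 times higher for Mt1, 1.01 to 1.15 times for Mt2 and 1.01 to 1.10 times for Slc39a14. Identical scores, such as 25781 for Mt1 in 1 mouse and Mt2 in another, arise in this way. The levels of Mt1 and Mt2 are compared within a mouse, and for other pairs of genes only the shift of their difference between groups is read.

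As a check of the tissue, all 10 hepatocyte markers were in the table, and Alb stood at the largest score of 341028 in every mouse. None of 4 B cell markers and none of 7 exocrine pancreas markers were in it. Scores of cell type markers differed between the groups. Over all genes, 19.5% were called up and 19.2% called down after Con A. After Con A, 6 of 10 hepatocyte markers fell, led by Ass1 (log2 -2.44) and Cyp2e1 (-2.43, with 1 Ctrl mouse at the largest score), and the summed score went from 966240 to 1240490 in Ctrl mice to 659372 to 700011 in Con A mice. Alb adds the same 341028 to the hepatocyte sum of every mouse in all 3 groups, a part that cannot move. All 8 Kupffer cell markers fell, led by Clec4f (-4.90) and Vsig4 (-4.54), and 6 of 8 sinusoidal endothelial markers fell while 1 rose. All 5 neutrophil markers in the table (of 7 listed) rose. Their summed scores were 67 to 147 in Ctrl and 818 to 1812 in Con A mice. Of 6 monocyte markers 4 rose and 1 fell, and 2 of the 3 T cell markers in the table (of 8 listed) rose. Genes below a score of 64 in all but 1 mouse are absent from the table. The neutrophil markers, low in Ctrl mice, mostly entered it through mice given Con A, so their rise was largely set by that rule. The T cell markers, at summed scores of 90 to 147 in Ctrl mice, may be affected too. In the Con A + MSCs mice the hepatocyte sum was 674569 to 742638 and the neutrophil sum 811 to 1653, and none of the markers of hepatocytes, Kupffer cells, monocytes, neutrophils or T cells was called against Con A. Of the 8 sinusoidal endothelial markers, 1 was higher and 1 lower in that comparison, and 1 of 7 stellate cell markers was higher. Over all genes, 4.2% were called up and 4.38% called down there. In bulk liver, fewer cells of a type and less RNA per cell cannot be told apart, and the part of these shifts in the results that follow was not tested.

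Calls were made by limma on log2(score + 1), with a Benjamini-Hochberg adjusted p below 0.05 over all 11289 genes and a fold change above 1.5, so fold changes of low genes are understated. Con A versus Ctrl called 4 of the 7 genes, all of them up (Mt1, Mt2, Slc39a14 and Mtf1), against 38.8% of all genes called and 19.5% called up. Con A + MSCs versus Con A called 1 of 7, Slc39a14, which was lower, against 8.58% of all genes called and 4.38% called down. The calls of this comparison depended on single mice, since the 969 genes called became 7 without Con A mouse 1 or without Con A + MSCs mouse 3, and 1575 without Con A mouse 2. In Con A + MSCs versus Ctrl, 3 of 7 were called, all up (Mt1, Mt2 and Slc39a14), against 26.7% called and 13.6% called up. The median log2 fold change of the 7 genes was 0.70, -0.44 and 0.35 in these comparisons, beside 0.05, 0.00 and 0.04 over all genes. The comparisons share mice, since each group enters 2 of them, so their values are set side by side and are not independent.

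**Figure D1:**
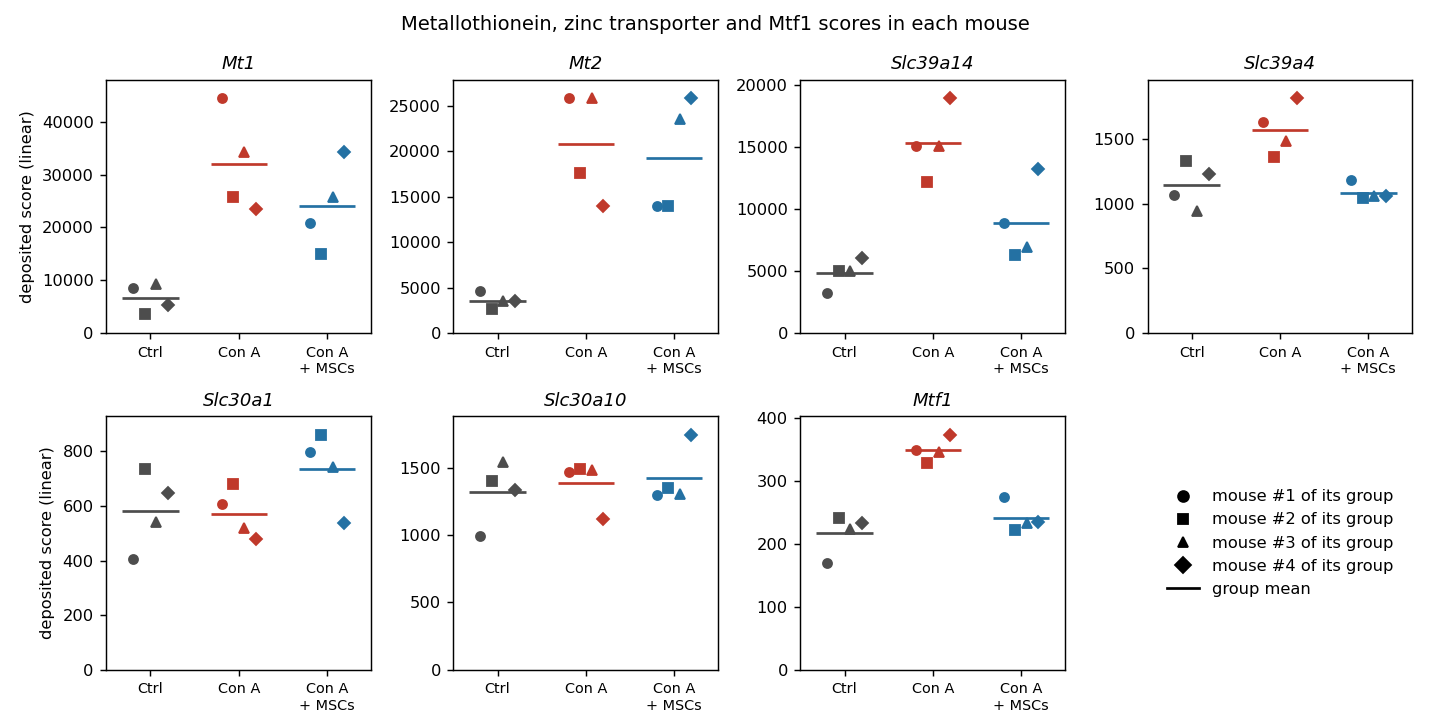
Deposited score (linear axis from 0, own scale per gene) of each gene in each mouse, with the group mean as a line and the mouse number as the symbol. For Mt1, Mt2, Slc39a14, Slc39a4 and Mtf1 all 4 Con A mice lie above all 4 Ctrl mice, while the groups overlap for Slc30a1 and Slc30a10.

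The metallothioneins rose most. Mt1 (chr8:94179089-94180325, + strand) and Mt2 (chr8:94172618-94173567, + strand) are neighbours on mm10, 5521 bases apart, with 3 exons each, and their proteins share the task of buffering zinc. Their transcripts of 549 and 511 bases share 0 of their 31-base stretches. Mt1 scored 8514, 3636, 9381 and 5239 in the Ctrl mice, 44442, 25781, 34316 and 23556 in the Con A mice, and 20838, 15057, 25781 and 34316 in the Con A + MSCs mice. Both Con A groups lay wholly above Ctrl and overlapped each other. The mean was 6692 ± 2708 (SD, n = 4) in Ctrl, 32023.8 ± 9489 in Con A and 23998.0 ± 8156 in Con A + MSCs. Con A versus Ctrl gave a 4.97-fold increase (95% interval 3.03 to 8.14, log2 2.31 ± 0.33 SE, limma adjusted p = 9.65e-05), and only 2.63% of genes had a larger log2 fold change.

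Mt2 scored 4646, 2604, 3532 and 3484 in Ctrl, 25781, 17632, 25781 and 13920 in Con A, and 13920, 13920, 23556 and 25781 in Con A + MSCs mice. Again no mouse given Con A, with or without cells, was as low as any Ctrl mouse. The increase after Con A was 5.75-fold (3.84 to 8.61, log2 2.52 ± 0.27 SE, limma adjusted p = 1.19e-05), from 3566 ± 836.6 (SD, n = 4) to 20778.5 ± 5972, and 2.33% of genes had a larger one.

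The infused cells were not followed by a called difference in either metallothionein. With cells against Con A, the log2 fold change was -0.44 for Mt1 (95% interval -1.15 to 0.28, limma adjusted p = 0.366). For Mt2 it was -0.12 (-0.70 to 0.46, adjusted p = 0.784). These intervals leave room for a decrease of Mt1 to 0.452 of the Con A level or an increase to 1.21 times that level, and for Mt2 from 0.616 to 1.38 times. Against Ctrl, the Con A + MSCs mice still had 3.67-fold (2.24 to 6.02, adjusted p = 0.000819) and 5.30-fold (3.54 to 7.93, adjusted p = 3.49e-05) higher scores of Mt1 and Mt2.

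Mt2 stood below Mt1 in all 12 mice. The within-mouse difference of log2 scores, Mt2 minus Mt1, was -0.84 ± 0.42 (SD, n = 4) in Ctrl, -0.63 ± 0.18 in Con A and -0.31 ± 0.23 in Con A + MSCs mice. None of the comparisons of this difference passed (two-sided exact permutation tests, p = 0.429 for Con A versus Ctrl, 0.143 for Con A + MSCs versus Con A and 0.0571 for Con A + MSCs versus Ctrl, or 0.429, 0.184 and 0.0857 when adjusted over 9 within-mouse tests). The smallest p that 4 mice against 4 can give is 0.0286. The shift of this difference for Con A versus Ctrl, 0.21, was 0.02 without Ctrl mouse 3 and 0.33 without Ctrl mouse 2.

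In ranks, Mt1 moved from places 22 to 60 of its 118 genes in Ctrl mice to places 5 to 9 after Con A and 6 to 14 with cells. Mt2 moved from places 46 to 83 to places 8 to 15 in both Con A groups. Slc39a14 stood at places 35 to 69 of 133 in Ctrl mice, 11 to 17 after Con A and 16 to 33 with cells. Near the top of a set a step of 1 place is a large step in score.

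**Figure D2:**
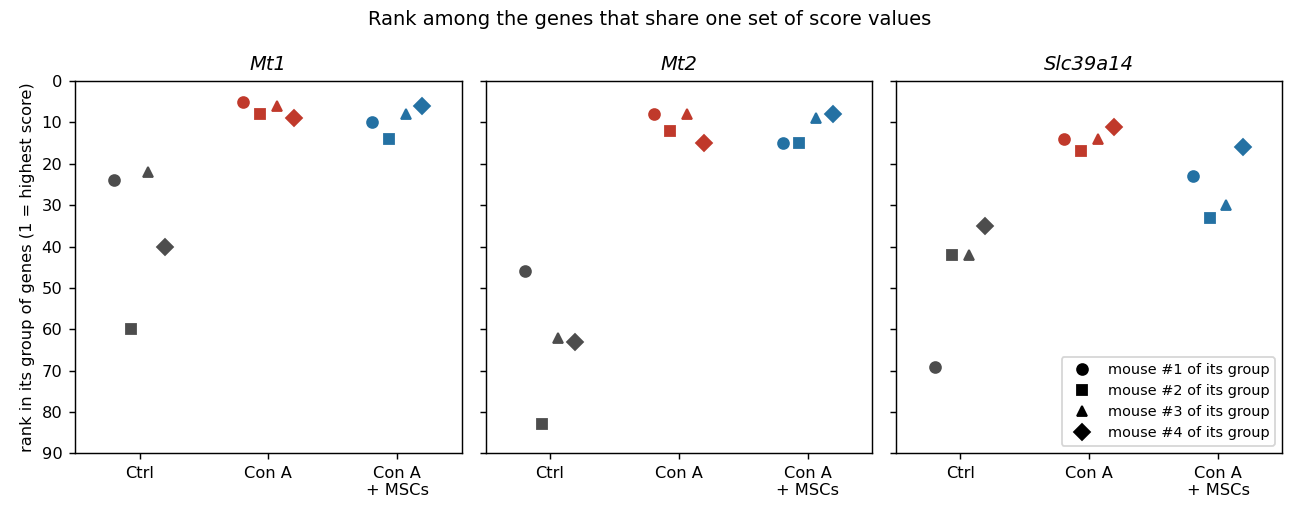
Rank of Mt1, Mt2 and Slc39a14 in each mouse (vertical axis, 1 at the top is the highest score) among the 118, 118 and 133 genes that share one series of score values. All Con A mice stand at places 5 to 17, above every Ctrl mouse of the same gene, and Slc39a14 stands at places 16 to 33 in the Con A + MSCs mice.

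Mtf1 encodes the zinc sensor itself (chr4:124802104-124849379, + strand, 12 exons). Its scores were 170, 241, 224 and 233 in Ctrl, 350, 328, 346 and 373 in Con A, and 274, 222, 234 and 235 in Con A + MSCs mice. The Con A mice lay above both other groups without overlap, and the other two overlapped. Mtf1 rose 1.62-fold after Con A (1.35 to 1.94, log2 0.70 ± 0.12 SE, limma adjusted p = 0.0004), close to the threshold of 1.5, and without Ctrl mouse 1 the log2 fold change was 0.58 and the gene was no longer called. With cells it was 1.45-fold lower than after Con A alone (log2 -0.54, -0.80 to -0.28, adjusted p = 0.0252), which missed the fold threshold, and against Ctrl the log2 fold change was 0.16 (adjusted p = 0.306). The limma adjusted p of the decrease with cells rose above 0.05, up to 0.0771, without Con A mouse 1 or 4 or Con A + MSCs mouse 2 or 3.

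Among the importers, Slc39a14 (ZIP14, chr14:70303469-70351425, - strand, 10 exons) carries zinc, manganese and iron into hepatocytes. The scores were 3227, 5036, 5036 and 6036 in Ctrl, 15086, 12210, 15086 and 18917 in Con A, and 8898, 6316, 6938 and 13212 in Con A + MSCs mice. Every Con A mouse and every Con A + MSCs mouse lay above every Ctrl mouse, and 1 Con A + MSCs mouse reached into the range of the Con A mice. The increase after Con A was 3.21-fold (2.22 to 4.64, log2 1.68 ± 0.25 SE, limma adjusted p = 0.000114), and 4.4% of genes had a larger one.

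Slc39a14 was the 1 gene of the 7 that was called between the Con A groups. It was 1.79-fold lower with cells (log2 -0.84, 95% interval -1.37 to -0.31, limma adjusted p = 0.0452), from 15324.8 ± 2752 (SD, n = 4) to 8841 ± 3115, and remained 1.80-fold above Ctrl (1.24 to 2.60, adjusted p = 0.0156). The decrease was near the threshold. An exact permutation test of this gene gave p = 0.0571, and the call was lost in 8 of the 12 fits that left out 1 mouse. Those were the fits without Ctrl mouse 2 or 3, Con A mouse 1, 3 or 4, or Con A + MSCs mouse 1, 2 or 3, and over all 12 fits the log2 fold change ran from -1.05 to -0.70 and the adjusted p from 0.0209 to 0.124.

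Slc39a4 (ZIP4, chr15:76612385-76616852, - strand, 11 exons), best known as the importer of dietary zinc in the intestine, scored 1064, 1327, 943 and 1231 in Ctrl mice. It scored 1633, 1364, 1483 and 1814 in Con A mice, all above Ctrl, and 1182, 1044, 1059 and 1059 in Con A + MSCs mice, all below Con A. Both differences had an adjusted p below 0.05 but stayed under the 1.5-fold threshold. The first was a 1.38-fold higher score (1.15 to 1.67, log2 0.47 ± 0.13 SE, limma adjusted p = 0.00697) and the second a 1.44-fold lower one (log2 -0.53, -0.80 to -0.26, adjusted p = 0.0268). The adjusted p of the second rose above 0.05, up to 0.0811, without Con A mouse 1 or 4 or Con A + MSCs mouse 2 or 3. Against Ctrl the Con A + MSCs mice differed by -0.06 (-0.33 to 0.21, adjusted p = 0.726). Of 5 small intestine markers, 1 was in the table. That marker was not called after Con A (log2 -0.255). With cells it was called higher than after Con A (0.965), beside 4.2% of all genes, and higher than in Ctrl (0.710), beside 13.6%.

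Counted over the 7 genes, 5 had no overlap between Con A and Ctrl mice, all 5 higher after Con A, against 50.4% of all genes, of which 27.1% were higher and 23.4% lower. Between the Con A groups 2 had none (Slc39a4 and Mtf1, both lower with cells), against 23.5% of all genes, and between Con A + MSCs and Ctrl mice 3 had none, against 37.9%.

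The exporters did not meet the call in any comparison. Slc30a1 (ZnT1, chr1:191906767-191913247, + strand, 2 exons) moves zinc out across the plasma membrane, and its window printed above holds 1 match of the metal response element. It scored 404, 735, 540 and 646 in Ctrl, 606, 681, 518 and 480 in Con A, and 797, 859, 743 and 537 in Con A + MSCs mice, and all 3 groups overlapped. The log2 fold change after Con A was 0.00 (95% interval -0.43 to 0.42, limma adjusted p = 0.989), so that levels from 0.743 to 1.34 times those of Ctrl lie within the interval. With cells it was 0.35 against Con A (-0.07 to 0.78, adjusted p = 0.218) and 0.35 against Ctrl (-0.08 to 0.77, adjusted p = 0.173).

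Slc30a10 (chr1:185454848-185468762, + strand, 4 exons) exports manganese from hepatocytes. It scored 996, 1398, 1540 and 1336 in Ctrl, 1470, 1488, 1479 and 1116 in Con A, and 1296, 1351, 1308 and 1741 in Con A + MSCs mice. The groups overlapped throughout, and the log2 fold changes were 0.08 after Con A (-0.25 to 0.42, limma adjusted p = 0.666), 0.04 with cells against Con A (-0.30 to 0.37, adjusted p = 0.893) and 0.12 with cells against Ctrl (-0.22 to 0.45, adjusted p = 0.567).

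**Figure D3:**
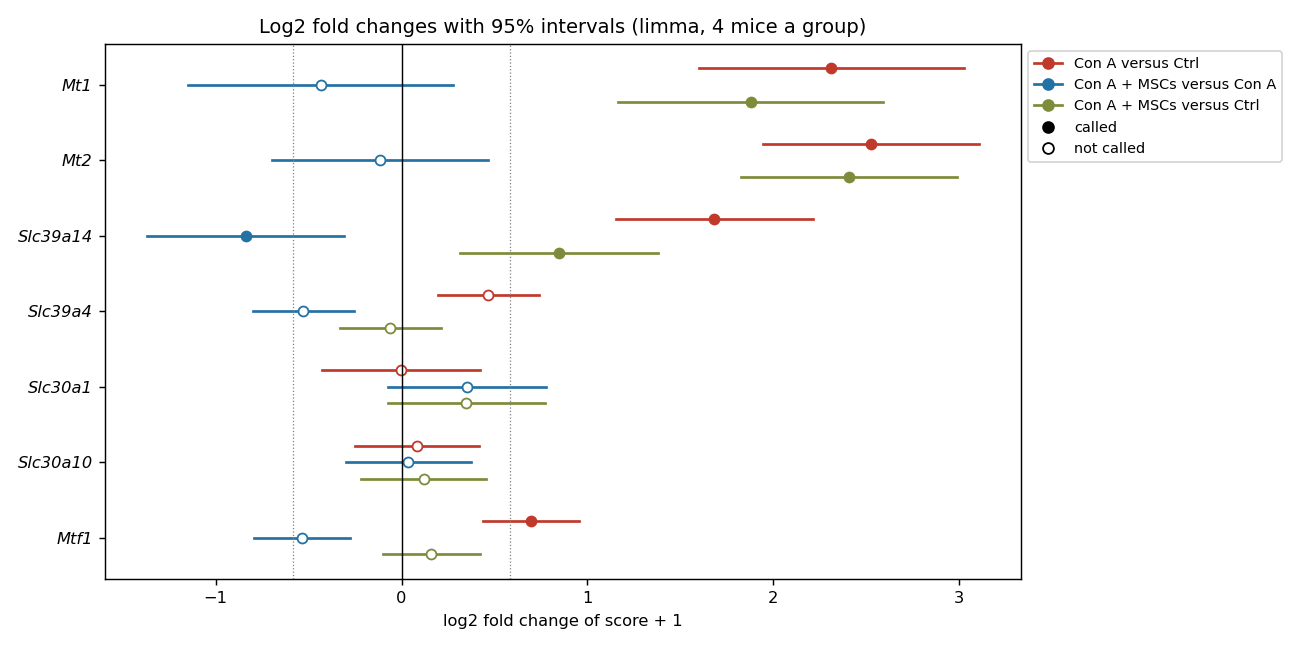
Log2 fold change of score + 1 (horizontal axis) with its 95% interval from limma for the 7 genes in 3 comparisons, filled where called and open where not, with dotted lines at a 1.5-fold change. The metallothioneins and Slc39a14 lie to the right for both comparisons with Ctrl, and the intervals of Slc30a1 and Slc30a10 cross 0 in all 3.

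The importer Slc39a14 was then set against each exporter within a mouse. The difference of log2 scores, Slc39a14 minus Slc30a10, was 1.86 ± 0.22 (SD, n = 4) in Ctrl, 3.46 ± 0.44 in Con A and 2.58 ± 0.32 in Con A + MSCs mice. The 3 groups did not overlap, and each of the 3 comparisons gave the smallest possible exact permutation p of 0.0286, which was 0.0643 after adjustment over the 9 within-mouse tests. Slc39a14 minus Slc30a1 was 3.05 ± 0.21 in Ctrl, 4.74 ± 0.47 in Con A and 3.55 ± 0.75 in Con A + MSCs mice, with exact p-values of 0.0286 for Con A versus Ctrl, 0.0571 for Con A + MSCs versus Con A and 0.257 for Con A + MSCs versus Ctrl (adjusted 0.0643, 0.0857 and 0.289). None of these passes 0.05 after adjustment. The shift of Slc39a14 minus Slc30a1 for Con A + MSCs versus Ctrl, 0.50, was 0.14 without Con A + MSCs mouse 4. The value of such a difference depends on the scores' scale and only its shift between mice is read.

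The rest of the family followed several directions. Of 21 other zinc carriers and metallothioneins listed, 14 were in the table, and after Con A 6 rose, 1 fell and 7 were not called, beside 19.5% and 19.2% of all genes called up and down. The importers Slc39a10 (log2 1.92 ± 0.29 SE, limma adjusted p = 0.000153) and Slc39a6 (1.80 ± 0.27, adjusted p = 0.000156) rose most. Slc39a6 scored 32, 52, 52 and 67 in Ctrl mice. Genes below 64 in all but 1 mouse are absent from the table, so Slc39a6 entered it only through mice given Con A, which favours a rise. Slc39a8, the closest relative of Slc39a14, fell by 1.17 (± 0.26, adjusted p = 0.0021), and Slc30a5, which loads zinc into the secretory pathway, rose by 0.91 (± 0.15, adjusted p = 0.000256). Slc39a7, Slc39a1 and Slc30a4 rose by 0.77, 0.75 and 0.65. With Mt1, Mt2, Mt3 and Mt4 as the metallothioneins listed, only Mt1 and Mt2 were in the table.

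Slc39a10 was also the 1 gene of these 14 called between the Con A groups. It scored 102, 98, 106 and 84 in Ctrl, 396, 234, 311 and 654 in Con A, and 123, 90, 118 and 204 in Con A + MSCs mice, with every Con A mouse above all mice of both other groups. With cells it fell by 1.53 on the log2 scale (± 0.29 SE, limma adjusted p = 0.0198), and 4.38% of all genes were called down in this comparison. In Con A + MSCs versus Ctrl, 4 of the 14 rose and 0 fell.

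**Figure D4:**
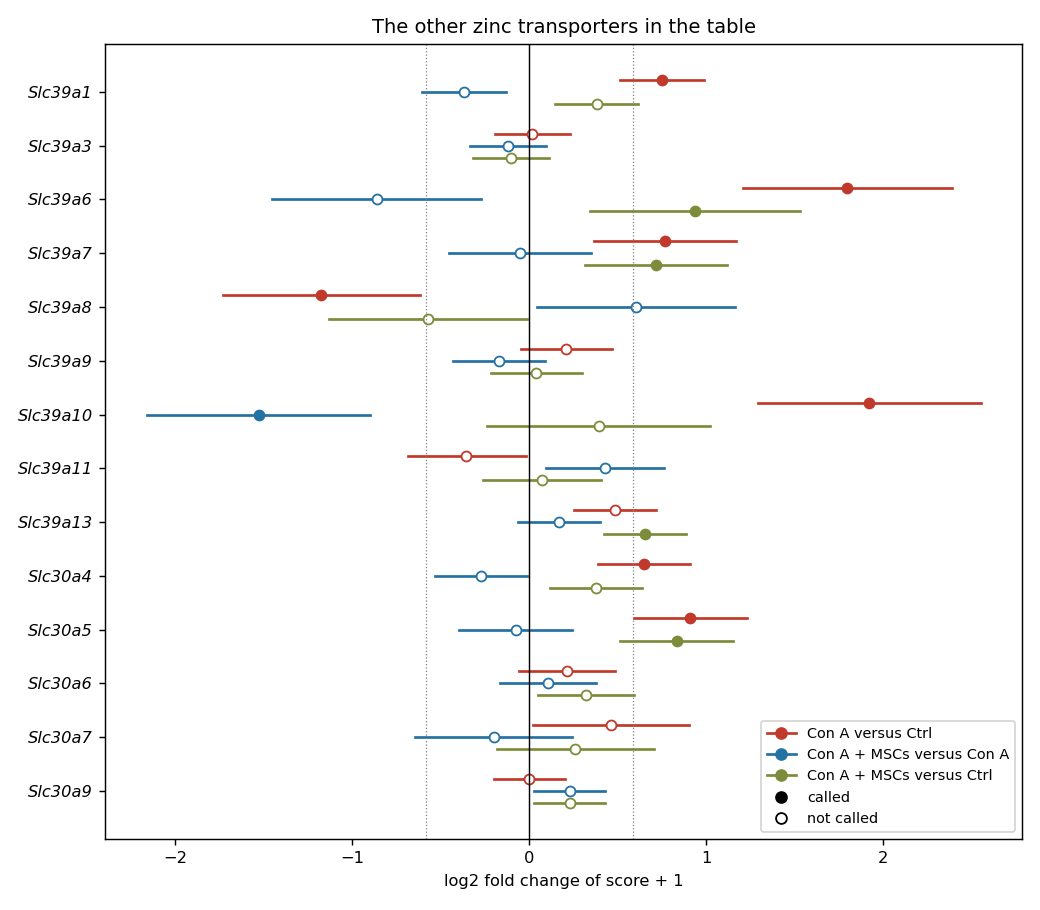
Log2 fold change of score + 1 with its 95% interval from limma for the 14 other zinc carriers in 3 comparisons, filled where called and open where not, with dotted lines at a 1.5-fold change. Slc39a10 and Slc39a6 stand farthest right and Slc39a8 farthest left for Con A versus Ctrl.

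All 12 listed carriers and chaperones of copper, manganese and iron were in the table, and after Con A 3 rose, 4 fell and 5 were not called, beside 19.5% and 19.2% of all genes called up and down. The iron exporter Slc40a1 (ferroportin) fell by 1.95 (log2), the copper chaperone Ccs, which serves superoxide dismutase, fell by 1.33, the copper-carrying plasma protein Cp rose by 1.59 and the metal importer Slc11a2 rose by 1.03. Between the Con A groups 1 of 12 was called, the copper pump Atp7a, which fell by 1.11 (limma adjusted p = 0.0455), and 0 rose, beside 8.58% of all genes called. Atp7a scored low, at 116, 64, 78 and 125 in Con A and 44, 36, 30 and 66 in Con A + MSCs mice. These groups overlapped, and an exact permutation test of this gene gave p = 0.0571.

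Of 28 enzymes that hold zinc in their structure or active site, 26 were in the table, and 14 fell, 4 rose and 8 were not called after Con A, beside 19.2% and 19.5% of all genes called down and up. The largest decreases were those of the carbonic anhydrases Car3 (log2 -5.95), Car14 (-5.04) and Car5a (-4.85), and of Bhmt (-3.88), which remethylates homocysteine. Bhmt stood at 341028, the largest score of the table, in 3 of 4 Ctrl and 3 of 4 Con A + MSCs mice and in 0 Con A mice, so its fold changes are set by that ceiling and are not exact. Between the Con A groups 8 of the 26 rose and 0 fell, beside 4.2% of all genes called up, among them Bhmt by 3.80 (limma adjusted p = 0.0243), Car5a by 2.39 (adjusted p = 0.0408) and Car14 by 1.70 (adjusted p = 0.0356). Car3 gave -0.29 (adjusted p = 0.832). The list's median log2 fold change was -0.71 after Con A and 0.42 with cells. Many of these enzymes are made mainly in hepatocytes. Of 10 hepatocyte markers, 6 fell after Con A and 0 were called with cells against Con A. The part of hepatocyte content in the changes of the enzymes was not tested.

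Genes tied to signals known to act on the metallothionein and Slc39a14 genes were also followed. Whether these signals acted on the members here was not tested. Of 22 genes of interleukin 6 signaling and the acute phase response, 21 were in the table, and 13 rose and 1 (the receptor Il6ra, -0.64) fell after Con A, beside 19.5% and 19.2% of all genes called up and down. The serum amyloid genes Saa3, Saa2 and Saa1 rose by 10.09, 7.22 and 5.83 (log2) and the siderophore-binding protein Lcn2 by 5.89. Between the Con A groups 0 of the 21 were called in either direction by limma, and the list's median was 0.00. Of the 21 genes, 6 stood at the ceiling of 341028 in at least 1 mouse given Con A, where a difference cannot be seen. Hp, Fga and Fgb stood there in all 8 of these mice, Saa2 in 7, Orm1 in 6 and Lcn2 in 1, and Fgg had the same score, 147432, in all 8. The median of 0.00 and the fold changes of these genes are limited accordingly. Against Ctrl, 14 rose and 1 fell in the Con A + MSCs mice, beside 13.6% and 13.1% of all genes.

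All 10 genes of the glucocorticoid receptor list, which holds Nr3c1 and its known targets, were in the table, and after Con A 2 rose, 1 fell and 7 were not called, beside 19.5% and 19.2% of all genes called up and down. Fkbp5 rose by 1.40 and Per1 by 1.13, and Tsc22d3 (GILZ), a direct target, fell by 0.76. With cells, Dusp1 fell by 1.68 (limma adjusted p = 0.0424) and Sgk1 by 0.98 (adjusted p = 0.0208) relative to Con A, and 0 rose, beside 4.38% and 4.2% of all genes called down and up.

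**Figure D5:**
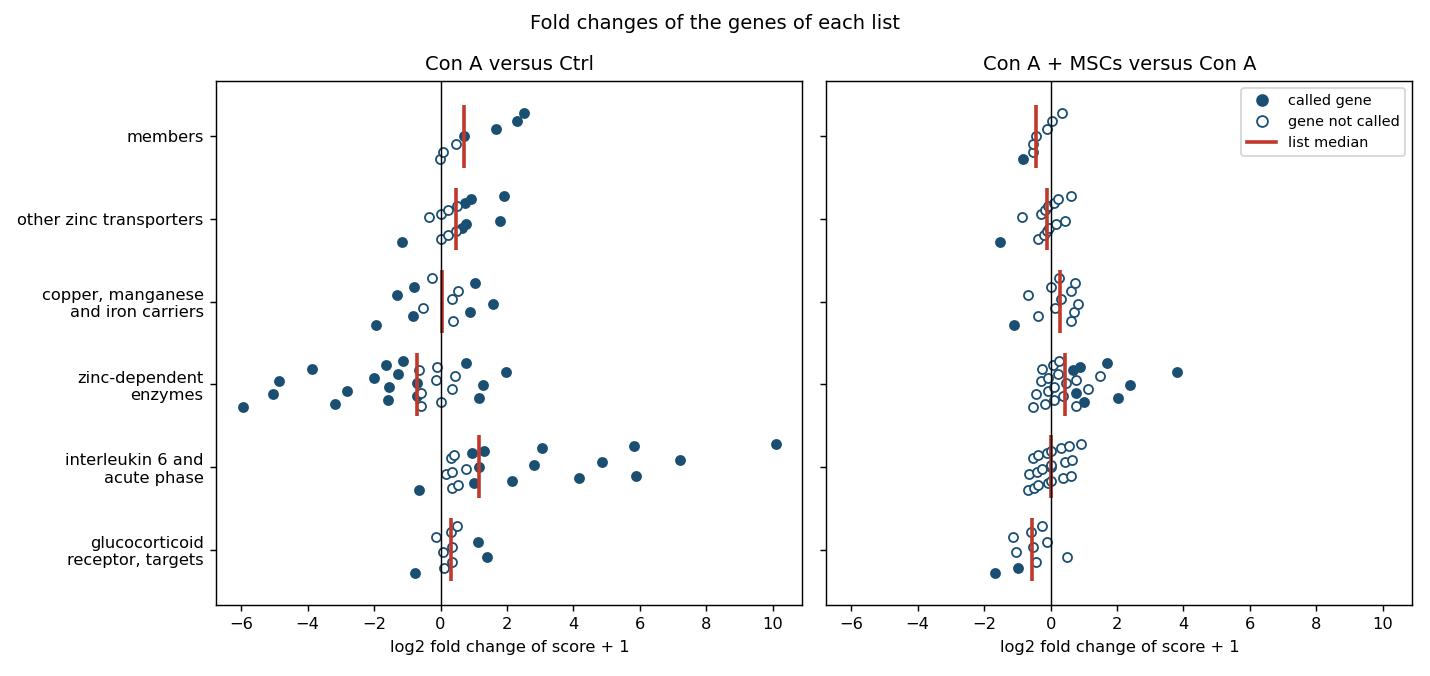
Log2 fold change of score + 1 of every measured gene of each list (points, filled where called) with the list median (vertical bar), for Con A versus Ctrl and Con A + MSCs versus Con A. The zinc-dependent enzymes have a median of -0.71 after Con A and 0.42 with cells, and the interleukin 6 and acute phase list, with 6 genes at the largest score in at least 1 mouse given Con A, has medians of 1.16 and 0.00.

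Lastly, the genes whose log2 scores followed those of a member most closely over the 12 mice were found. They are given as a description, since the 12 mice share 3 groups that differ in many genes. For Mt1 these were Vcan (r = 0.980), Ikbke (0.969) and Pxk (0.964), and for Mt2 they were Car4 (0.984), Acot8 (0.979) and Fabp4 (0.979). Car4 scored 0 in every Ctrl mouse and 18 to 128 in mice given Con A. It entered the table only through mice given Con A, which favours a high r with Mt2. Slc39a14 was followed by Mtdh, Oplah and Plec (each 0.980), and Mtf1 by N4bp1 (0.986), Cmtr1 (0.979) and Cab39 (0.976). N4bp1 scored 286 to 462 in Ctrl, 622 to 838 in Con A and 408 to 511 in Con A + MSCs mice, and so stood highest in the same group as Mtf1.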

How the data were processed

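Liver RNA of 12 mice (4 per group, groups from the sample titles) was sequenced as 150-bp pairs from poly-A libraries. The submitters' processing notes name Bowtie2 2.2.1, RSEM 1.2.18 and mm10. The authors deposited 1 score per gene and mouse, a whole number normalized between mice by a method not given in the sources used here, and they name DESeq2, which was not used because it needs counts. Genes below a score of 64 in all but 1 mouse had been left out, and sequencing depth is unknown. The number of per-sample columns not used is 0.

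One limma 3.58.1 model (R 4.3.3, lmFit, eBayes with a trend, no covariates) of all 12 mice was fitted to log2(score + 1). Calls needed an adjusted p below 0.05 and a fold above 1.5. Within-mouse differences were compared by two-sided exact permutation tests. Python 3.11.15, numpy 2.4.6, scipy 1.17.1, pandas 2.3.3 and matplotlib 3.10.9 were used for the rest. The fit was tested on simulated data.

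The members and lists were chosen with earlier results of these data known. Named were all members and the 4 genes of each related list with the largest change among those called after Con A. Of the marker lists, 2 such genes were named for hepatocytes and for Kupffer cells only. The 3 genes most like each of 4 members were also named. Slc39a7, Slc39a1, Slc30a4, Atp7a, Il6ra, Dusp1, Sgk1, Hp, Fga, Fgb, Fgg, Orm1 and the second values of enzymes with cells were named after their values were seen. Stellate cell markers fell in 3 of 7 after Con A, and of 5 cholangiocyte markers in the table (of 7) 1 rose, beside 19.2% and 19.5% of all genes called down and up. Positions are those of the table, and exons and transcripts those of GENCODE M21, in which 11168 of the 11289 transcripts were found. Promoter windows are from RefSeq (GRCm38.p6).

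Alternatives tried were dropping the eBayes trend, quantile normalization, median centring, a pseudocount of 10, leaving out genes with a mean under 100, fitting the 8 mice compared on their own, unadjusted p-values, a fold above 2, exact permutation tests, a block for the replicate number and leaving out each mouse.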

Additional observations from a re-analysis of the deposited data

Results flagged for a closer look

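Among 21 sets of 4 mice (7 genes in 3 groups), 3 had a mouse that stood apart from the others by Dixon's test at the 95% level, and chance gives about 1 in 20. In the Con A + MSCs mice the highest Slc39a4 score was 1182, while the other mice had 1044, 1059 and 1059. The lowest Slc30a10 score in the Con A mice was 1116, below 1470, 1479 and 1488. In the Con A + MSCs mice the highest Slc30a10 score was 1741, above 1296, 1308 and 1351, and this mouse, number 4, also had the highest Mt1, Mt2 and Slc39a14 scores of its group.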

How the results depend on the processing

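The calls of Mt1, Mt2 and Slc39a14 for Con A versus Ctrl held in all 10 alternative settings and all 12 fits without 1 mouse. Some of these could hardly change a call. Median centring left the values as they were, and an unadjusted p cannot lose a call. Fits without a Con A + MSCs mouse kept these fold changes and altered only the estimate of spread. The members called for Con A versus Ctrl were 3 to 4 when 1 mouse was left out, and for Con A + MSCs versus Ctrl 3 in every such fit. For Con A + MSCs versus Con A the 1 call (Slc39a14) became 0 without the eBayes trend, with only the 8 mice compared, at a fold above 2 and by the exact permutation test, and ran from 0 to 2 without 1 mouse. With Con A mouse 2 left out Slc39a4 was called too (-0.594, limma adjusted p = 0.0161), and without Con A + MSCs mouse 1 the 1 call was Mtf1 (-0.597, adjusted p = 0.0351) and not Slc39a14.

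The genes called over the whole table numbered 4379, 969 and 3015 for Con A versus Ctrl, Con A + MSCs versus Con A and Con A + MSCs versus Ctrl, and 2391, 353 and 1539 at a fold above 2. The second was 1697 at an unadjusted p. Without 1 mouse they ran from 4093 to 4575, from 7 to 1575 and from 2654 to 3254. The second was 7 without Con A mouse 1 or Con A + MSCs mouse 3, 18 without Con A + MSCs mouse 2, 285 without Con A mouse 4, 506 without Con A + MSCs mouse 1, 563 without Con A mouse 3 and 1575 without Con A mouse 2. The cause was not tested.

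Values near 0 changed sign without 1 mouse. For Con A versus Ctrl, Slc30a1 ran from -0.166 to 0.121, with 0.121 and 0.059 without Ctrl mice 2 and 4 and 0.039 and 0.076 without Con A mice 3 and 4. Slc30a10 ran from -0.045 (without Ctrl mouse 1) to 0.185 for Con A versus Ctrl, from -0.066 to 0.077 for Con A + MSCs versus Con A, with -0.066 and -0.065 without mouse 4 of either group, and from -0.009 (without Ctrl mouse 1) to 0.200 for Con A + MSCs versus Ctrl. Mt2 for Con A + MSCs versus Con A ran from -0.294 to 0.020, with 0.002 without Con A mice 1 or 3 and 0.020 without Con A + MSCs mice 1 or 2. Slc39a4 for Con A + MSCs versus Ctrl ran from -0.149 to 0.016 (without Ctrl mouse 2).

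Without 1 mouse, Slc39a14 minus Slc30a10 ran from 1.391 to 1.74 for Con A versus Ctrl, from -1.014 to -0.665 for Con A + MSCs versus Con A and from 0.613 to 0.846 for Con A + MSCs versus Ctrl, and Slc39a14 minus Slc30a1 from 1.5 to 1.879, from -1.547 to -0.966 and from 0.14 to 0.72. Mt2 minus Mt1 ran from 0.022 to 0.331, from 0.251 to 0.408 and from 0.338 to 0.648 in the same order. With 1 mouse fewer, 4 mice against 3 cannot give an exact permutation p below 0.0571. Mice with the same number did not all deviate together. For Con A + MSCs and Con A mice the correlations were 0.375 and 0.244 for numbers 2 and 4 but -0.043 and -0.087 for numbers 1 and 3, and over the other comparisons they ran from -0.118 to 0.168, so the mice were taken to share only a number. With the replicate number as a block the members called for Con A + MSCs versus Con A stayed 1 and the genes called were 1297, and an exact sign-flip test of the 4 pairs, which cannot go below p = 0.125, gave 1.600, -0.873 and 0.726 for Slc39a14 minus Slc30a10 and 1.687 for Slc39a14 minus Slc30a1, Con A versus Ctrl. Scores near the top of a set move in large steps, which limits the precision of the Mt1 and Mt2 fold changes.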
